A study of Homo sapiens with 8 samples.

Results

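Antisense genes are named after the gene on the opposite strand that they lie across or beside, with the suffix -AS1, and here all such genes with a well-measured transcript in untreated cells were set beside that gene, their sense partner. Of the 592 genes with the suffix -AS1 in the normalized count table, 183 had a mean of at least 100 normalized counts over the 4 Control libraries, which is 183 of 57500 genes counted in all. The members were thus selected on their Control level, so those levels are a description and carry no test. GNAS-AS1 and EPB41L4A-AS1, with Control means of 275.5 and 1767 normalized counts, were left out by name. At the boundary, DSP-AS1 (100.4 normalized counts in Control, 46.3 in DZNep) and TMEM254-AS1 (100.9 and 18.6) were just inside, and TMC3-AS1 (99.8 and 55.8) and NINJ2-AS1 (99.7 and 117) just outside.

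RNAseq was carried out on HEK293T cells, a human embryonic kidney line made with the SV40 large T antigen. The Control group held 4 replicates given vehicle, and the DZNep group 4 replicates given 100 µM DZNep, with 48 h of treatment in both. DZNep (3-deazaneplanocin A) blocks S-adenosylhomocysteine hydrolase, whose substrate then builds up and inhibits methyltransferases. No genetic change beyond those of the line is named for either group.

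An antisense lncRNA is a long transcript without a known protein product that is read from the strand opposite another gene. Many start close to the start of the partner and run away from it or across it, others meet it at its end, and others lie wholly inside it. Such transcripts are known to act on the partner in some cases, by bringing chromatin factors to it, by interfering with its transcription or by pairing with its RNA, while most have no known function. Many lncRNAs stay in the nucleus and are turned over there by the RNA exosome.

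All 183 members passed the filter for the test across genes. GENCODE lists 180 of them as lncRNA genes and 3 as pseudogenes (EMC3-AS1, TP73-AS1 and SVIL-AS1), on 23 chromosomes, and the median Control mean was 245 normalized counts, with 12 members at 1000 or more. A gene with the partner's symbol was counted for 181 members and tested for 177. The symbols TRG and HOXC name loci rather than single genes, so TRG-AS1 and HOXC-AS1 have no partner, and WEE2, TTN, KLRK1 and RAET1E had too few counts to be tested. All 181 pairs with a partner lay on opposite strands.

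The libraries held from 25043058 to 44902779 counts. Across genes, the deviations of DZNep replicate 4 from its group mean correlated with those of Control replicates 1 and 4 (0.53 and 0.67) and ran against those of Control replicates 2 and 3 (-0.68 and -0.57), the reverse held for DZNep replicates 2 and 3, and DZNep replicate 1 sided with neither (0.14, -0.05, -0.04 and -0.02). Values of many genes thus fall into a high and a low pair within Control. With replicates 1 and 4 alone the median log2 fold change was -0.86 in the members and 0.12 in the partners. With replicates 2 and 3 alone it was -0.67 and -0.04. The kidney and neural genes known in this line (PAX2, LHX1, NEFL, NEFM and INA) lay between 163 and 9000 normalized counts in every library. CD3E, a T cell gene, was at 0 in the Control libraries and reached 40.5 in DZNep, ALB stayed at or under 6.91, and LYZ, a myeloid gene, had means of 22.6 in Control and 130 in DZNep. The part of other cell types in the results was not tested. In these bulk libraries, a change of RNA per cell and a change in the share of cells that make it cannot be told apart.

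The counting behaved as counting without strand. Of 387 lncRNA genes whose exons are wholly covered by exons on the other strand, 10.1% had any count, against 68.6% of 9505 lncRNA genes without a covered base. Reads from the bases where 2 exons on opposite strands overlap therefore cannot be assigned to one of them, and values of members that overlap a partner's exons are uncertain to that extent. The exons of 144 members overlap an exon of the partner, but the overlap is short in most. The median member had 7.95% of its exonic bases covered on the other strand, 99 members had under 10%, and 2 (GJD3-AS1 and PRR11-AS1) were wholly covered.

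The start regions of the pairs are shown first, since many members begin within the same stretch as the partner. They are RefSeq windows from 250 bases before to 50 bases after a gene's start in GRCh38.p14, printed 5′ to 3′ on the gene's own strand, with capitals for matches on either strand to CCAAT (the CCAAT box), GGGCGG (the GC box), TATAAA (the TATA box), CCGGAAG (the ETS core), GCATGCGC (the NRF1 core) and TGACGT (the CRE core). The RefSeq start need not be the outermost GENCODE start. The pair of WAC-AS1 and WAC is shown for the greatest fall among the members, at chr10:28532305-28532604, minus strand, and chr10:28532529-28532828, plus strand, and the windows share 76 bases. MNX1-AS1 (chr7:157010607-157010906, plus strand) is shown for a fall beside a partner that was not called.
WAC-AS1: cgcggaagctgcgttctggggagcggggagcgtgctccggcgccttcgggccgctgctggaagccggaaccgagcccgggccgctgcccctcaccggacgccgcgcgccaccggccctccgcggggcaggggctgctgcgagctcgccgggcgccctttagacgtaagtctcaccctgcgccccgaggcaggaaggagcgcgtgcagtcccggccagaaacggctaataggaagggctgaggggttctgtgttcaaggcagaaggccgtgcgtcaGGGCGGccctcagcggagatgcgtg
WAC: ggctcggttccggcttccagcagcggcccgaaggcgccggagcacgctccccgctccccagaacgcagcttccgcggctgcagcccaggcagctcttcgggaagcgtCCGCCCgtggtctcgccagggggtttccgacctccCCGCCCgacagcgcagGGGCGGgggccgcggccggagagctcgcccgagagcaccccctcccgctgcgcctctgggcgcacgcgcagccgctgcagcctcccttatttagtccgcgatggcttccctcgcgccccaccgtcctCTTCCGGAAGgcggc
MNX1-AS1: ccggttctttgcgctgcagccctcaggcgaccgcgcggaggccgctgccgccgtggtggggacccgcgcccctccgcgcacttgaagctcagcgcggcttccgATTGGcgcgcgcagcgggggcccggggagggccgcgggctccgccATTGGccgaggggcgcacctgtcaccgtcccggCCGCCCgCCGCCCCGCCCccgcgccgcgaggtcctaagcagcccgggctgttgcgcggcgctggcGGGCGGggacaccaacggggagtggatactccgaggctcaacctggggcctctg
The WAC-AS1 window held 1 GC box and 37 CpG, the WAC window 3 GC boxes and 2 ETS cores that overlap each other on opposite strands, and the MNX1-AS1 window 2 CCAAT boxes and 4 GC boxes. PCBP1-AS1 (chr2:70086966-70087265, minus strand), RAB35-AS1 (chr12:120116657-120116956, plus strand) and FOXD2-AS1 (chr1:47434592-47434891, minus strand) are shown as members that rose, for contrast.
PCBP1-AS1: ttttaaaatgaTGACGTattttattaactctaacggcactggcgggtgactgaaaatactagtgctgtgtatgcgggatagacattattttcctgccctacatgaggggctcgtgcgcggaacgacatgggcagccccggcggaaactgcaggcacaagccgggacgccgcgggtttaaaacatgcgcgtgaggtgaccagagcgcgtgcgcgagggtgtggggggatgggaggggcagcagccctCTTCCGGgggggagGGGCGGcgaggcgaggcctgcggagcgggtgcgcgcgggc
RAB35-AS1: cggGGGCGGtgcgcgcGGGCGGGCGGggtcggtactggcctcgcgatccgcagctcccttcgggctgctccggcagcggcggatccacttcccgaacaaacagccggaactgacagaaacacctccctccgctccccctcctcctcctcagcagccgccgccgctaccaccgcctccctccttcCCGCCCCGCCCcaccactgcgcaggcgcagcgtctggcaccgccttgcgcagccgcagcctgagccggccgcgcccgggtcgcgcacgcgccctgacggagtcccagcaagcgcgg
FOXD2-AS1: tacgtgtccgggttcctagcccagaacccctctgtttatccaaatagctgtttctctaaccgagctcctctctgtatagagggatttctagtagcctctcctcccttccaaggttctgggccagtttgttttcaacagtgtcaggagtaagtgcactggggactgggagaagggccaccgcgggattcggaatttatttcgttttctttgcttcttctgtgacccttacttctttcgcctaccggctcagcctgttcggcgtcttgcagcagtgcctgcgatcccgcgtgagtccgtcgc
PCBP1-AS1 held 1 CRE core, 1 ETS core and 1 GC box, RAB35-AS1 5 GC boxes, and FOXD2-AS1 none of the 6 letter strings and 16 CpG, the fewest of those shown. A window was found for 145 members and 153 partners. The GC box was in 60.7% of the members' windows, 64.1% of the partners' and 44.6% of all 27305 windows, and the median number of CpG was 25, 25 and 14. The TATA box was in 4.83%, 7.84% and 12.0%, the ETS core in 18.6%, 16.3% and 10.7%, the CRE core in 17.2%, 12.4% and 8.32%, the CCAAT box in 34.5%, 30.7% and 35.7%, and the NRF1 core in 4.83%, 2.61% and 3.27%. Between members later called lower and not called, the GC box (58.2% and 61.4%) and the CCAAT box (37.3% and 35.7%) were about as frequent, the ETS core stood at 22.4% and 14.3%, and the NRF1 core at 8.96% (6 of 67) and 1.43% (1 of 70). In 28 of 129 pairs with both windows, the windows shared bases. Of these 28 members 14 fell and 3 rose, and of all 129 it was 59 and 8, a similar share that fell. These matches are descriptions of letters and were given no test.

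The first comparison asked whether antisense transcripts changed with DZNep. A gene was called where edgeR's quasi-likelihood test gave a Benjamini-Hochberg adjusted p under 0.05 over all 19171 genes tested and the log2 fold change was over 1 in size. Of the 183 members, 78 (42.6%) were lower in DZNep, 8 (4.37%) were higher and 97 were not called. Across all genes tested, 13.5% were lower and 10.6% higher, and across the 12969 genes with a Control mean of at least 100, the same level as the members, 13.5% were lower and 4.42% higher. The share of members that rose is thus that of genes of their level, and the share that fell is above it. Among the 437 other lncRNA genes of that level, 36.6% were lower and 4.58% higher. Most of what sets the members apart from all genes was thus shared by lncRNA genes outside the members. The 437 were not filtered by symbol, so they can hold antisense genes that are not members. The difference between 42.6% and 36.6% was not tested.

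The median log2 fold change of the members was -0.76, with quartiles at -1.69 and -0.03 and a range from -3.76 to 2.28. It was -0.02 in the sense partners, -0.07 in all genes of that level and -0.69 in the other lncRNA genes. The plot of the distribution of changes shows the members and the other lncRNA genes side by side and the partners on top of all genes. With each DZNep library set against the Control library of the same number, 142, 126, 128 and 139 of the 183 members were lower in replicates 1 to 4, with median log2 ratios of -0.93, -0.55, -0.57 and -0.77, against 0.09, 0.09, -0.03 and 0.07 for the partners. All 78 members called lower were lower in all 4 of these ratios. For 72 of them this had to be so, since all their DZNep libraries lay below all their Control libraries. In 93 members all DZNep libraries lay below all Control libraries (22.2% of genes of that level did), and in 15 they lay above (16.6%). Of the 78 called lower, 66 stayed called with every library left out in turn, as did 5 of the 8 called higher.

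**Figure D1:**
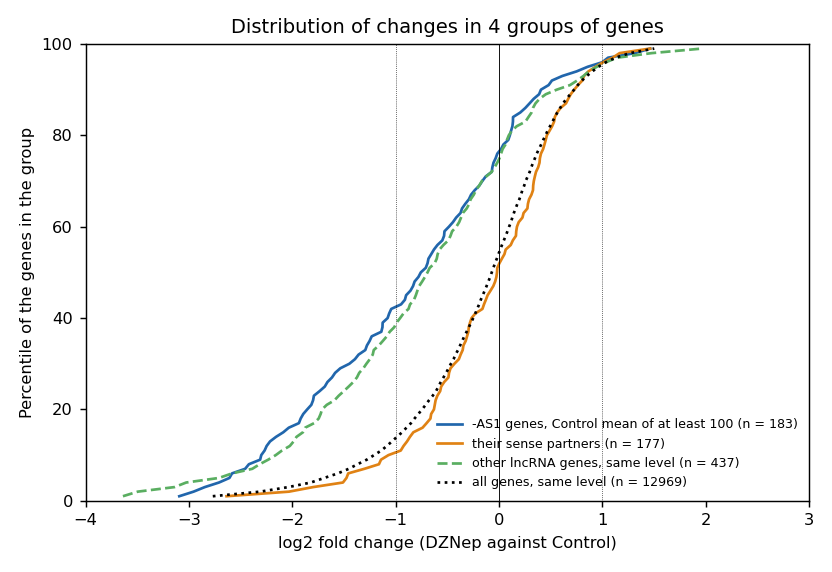
Percentile of the genes of a group (vertical axis, in percent) against their log2 fold change, DZNep against Control (horizontal axis), for the 183 antisense genes, their 177 tested sense partners, 437 other lncRNA genes and all 12969 genes with a Control mean of at least 100 normalized counts. The lines of the antisense genes and of the other lncRNA genes, with medians of -0.76 and -0.69, run to the left of the partners' line and the line of all genes, and the 4 lines meet near a log2 fold change of 1.

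Since the Control libraries both chose the members and enter the fold change, the count was also taken with other choices. With a mean of at least 100 over all 8 libraries, 58 of 172 genes were lower and 13 higher, where 11.8% and 6.01% of all genes chosen alike were. With the mean taken over the DZNep libraries, a choice that favours genes high in DZNep, 18 of 127 were lower and 15 higher, where 9.31% and 7.48% of all genes chosen alike were. Of the 418 -AS1 genes tested with a Control mean under 100, 107 (25.6%) were lower and 38 (9.09%) higher, with a median of -0.47, and of 37 genes with the suffixes -AS2 to -AS5, 8 were lower and 5 higher, beside 13.5% and 10.6% of all genes tested. The excess of falls over rises thus depended on the level that chose the genes, and with the DZNep level the counts in the 2 directions were close to each other. Within the members, the share that fell was close to even over the level, with 34 of 78 at Control means of 100 to 200, 29 of 67 at 200 to 500 and 15 of 38 at 500 or more.

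WAC-AS1 (ENSG00000254635, chr10:28522652-28533066 in GRCh38, minus strand) fell the most. It starts within 573 bases of the start of WAC, which encodes an adaptor of histone H2B ubiquitylation. WAC-AS1 had 2595, 908, 996 and 2557 normalized counts in Control replicates 1 to 4 and 142, 109, 117 and 165 in DZNep. The Control libraries split into a high and a low pair, and even the lowest lay far above every DZNep library. The mean fell from 1764 ± 938 to 133 ± 25.7 (SD, n = 4), a log2 fold change of -3.76 (SE 0.39, adjusted p = 7.35e-05). WAC itself had 6461 ± 1150 in Control and 6214 ± 603 in DZNep, a log2 fold change of -0.08 (SE 0.16, adjusted p = 0.718), with overlapping groups. The ratio of WAC-AS1 to WAC fell by 3.52 on the log2 scale (SE 0.45, adjusted p = 0.000135, limma).

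DLX6-AS1, MNX1-AS1 and FZD10-AS1 were also among the 6 greatest falls. DLX6-AS1 (chr7:96955141-97014088, minus strand), known in the forebrain as a cofactor of DLX homeobox proteins, had 296, 320, 288 and 322 normalized counts in Control and 39.0, 32.2, 32.0 and 27.0 in DZNep. These groups were tight and far apart, with a log2 fold change of -3.25 (SE 0.19, adjusted p = 4.62e-06). DLX6, the homeobox gene that it encloses, had 343 ± 92.9 and 455 ± 62.1, a log2 fold change of 0.38 (adjusted p = 0.17). MNX1-AS1 starts 142 bases from MNX1, a homeobox gene of motor neurons and pancreas, and runs away from it. It had 503, 316, 371 and 271 normalized counts in Control and 45.4, 53.2, 50.1 and 28.1 in DZNep, so that no library of one group reached the other (log2 fold change -3.06, SE 0.27, adjusted p = 3.22e-05). MNX1 had 1246 ± 486 and 1287 ± 305, with a log2 fold change of 0.02 (SE 0.28). FZD10-AS1, beside the gene of a Wnt receptor of the Frizzled family, went from 553 ± 87.3 to 73.8 ± 7.63 (log2 fold change -2.93, adjusted p = 5.23e-06), while FZD10 went from 300 ± 12.7 to 183 ± 42.8. For FZD10 that is a log2 fold change of -0.74 (adjusted p = 0.0104), under the size needed for a call, although its groups did not overlap.

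SLC16A1-AS1, beside the gene of the lactate transporter MCT1, was the second most abundant member in Control with 7084, 1124, 2154 and 5438 normalized counts, and had 601, 447, 440 and 1080 in DZNep. The highest DZNep library lay just under the lowest Control library, the spread within Control was wide, and the log2 fold change was -2.65 (SE 0.55, adjusted p = 0.00342). SLC16A1 had 13410 ± 3113 and 16474 ± 1407 (log2 fold change 0.27, adjusted p = 0.269). TMPO-AS1, beside the gene of lamina-associated polypeptide LAP2, went from 475 ± 108 to 98.2 ± 26.1 (log2 fold change -2.30, adjusted p = 8.55e-05), with TMPO at 12731 ± 3786 and 17040 ± 3136 (0.39, adjusted p = 0.213). CD63-AS1, beside the gene of an endosomal tetraspanin, went from 352 ± 43.5 to 72.8 ± 15.1 (log2 fold change -2.30, adjusted p = 2.67e-05), with CD63 at 9497 ± 2620 and 8871 ± 2066. In both pairs a far more abundant partner stayed without a call. PSMG3-AS1, beside the gene of a proteasome assembly chaperone, went from 306 ± 72.4 to 46.9 ± 4.14 (-2.73, adjusted p = 2.28e-05). TIAM1-AS1, beside the gene of a Rac exchange factor, went from 247 ± 129 to 42.1 ± 4.84 (-2.58, adjusted p = 0.000263). SBF2-AS1, at the far end of the gene of a myotubularin-related pseudophosphatase, went from 244 ± 24.5 to 47.0 ± 9.91 (-2.40, adjusted p = 3.13e-05). In each of these 6 genes the DZNep libraries all lay below the Control libraries, and in none was the partner called (log2 fold changes of -0.40 for PSMG3, 0.38 for TIAM1 and -0.31 for SBF2).

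The rest of the 20 greatest changes were NHSL1-AS1 (-2.60), RBM26-AS1 (-2.32), ZNF687-AS1 (-2.30), ZNF710-AS1 (-2.96), TMEM254-AS1 (-2.45), TMEM44-AS1 (-2.95), CCDC18-AS1 (-2.61), ELOA-AS1 (-2.75), LIPE-AS1 (-2.47) and SDCBP2-AS1 (-2.45), each with all DZNep libraries below all Control libraries. Every one of the 20 was a fall. Among their partners, NHSL1, RBM26, ZNF687, ZNF710 and TMEM254 were not called, with log2 fold changes between -0.37 and 0.36, while TMEM44 fell from 448 ± 135 to 180 ± 41.8 (-1.34, SE 0.26, adjusted p = 0.00253). The plot by library shows the gap between the groups for each of them. In all, 30 members were called with a fall of over 2 on the log2 scale. A log2 fold change of -2.03 lay at percentile 16 of the members. Close to it, -2.02 lay at percentile 12 of the other lncRNA genes and -2.04 at percentile 3 of all genes of that level.

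**Figure D2:**
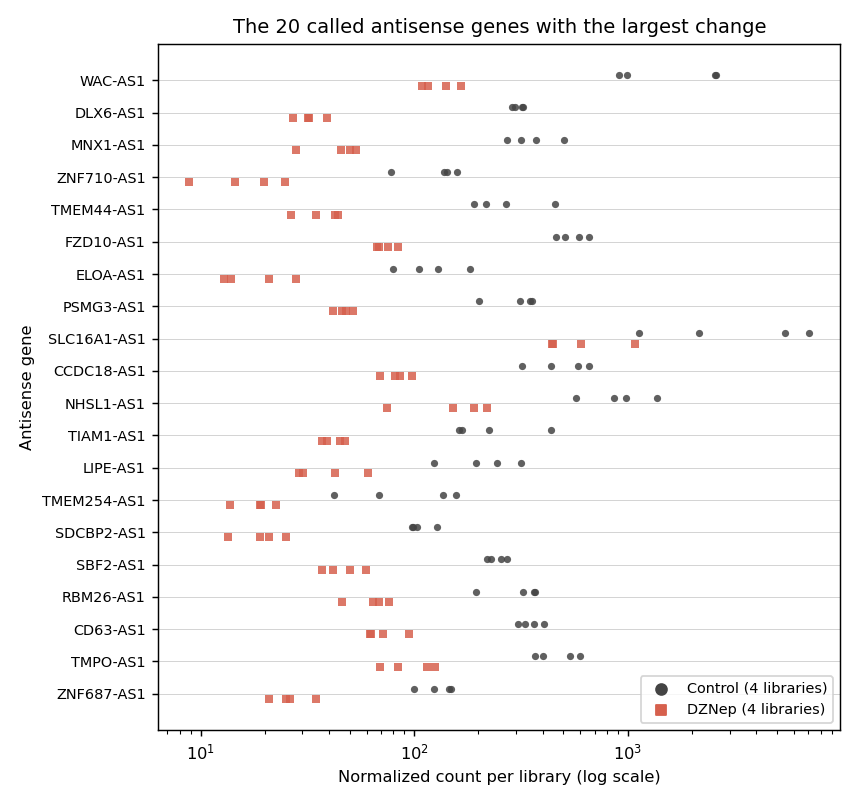
Normalized counts per library (horizontal axis, log scale) of the 20 called antisense genes with the largest change, with circles for the 4 Control libraries and squares for the 4 DZNep libraries. In all 20 genes the DZNep libraries lie to the left of the Control libraries; the gap is widest in WAC-AS1 and DLX6-AS1 and narrowest in SLC16A1-AS1.

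The second comparison set each member beside its partner. Of the 177 partners tested, 18 (10.2%) were lower and 8 (4.52%) higher. Of genes of the members' level 13.5% were lower and 4.42% higher, and of all genes tested 13.5% and 10.6%. The partners were not chosen by level, and some lay under a Control mean of 100. The count of higher partners was 5 without Control replicate 3. For the 75 members called lower whose partner was tested, the partner was not called in 65, lower in 7 and higher in 3. For the 8 members called higher, the partner was higher in 1 and not called in 7. For the 94 members not called, 11 partners were lower and 4 higher. In the plot of both changes, the antisense genes are centred at -0.76 on the vertical axis and the partners at -0.02 on the horizontal one, where they run from -2.97 to 2.71.

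**Figure D3:**
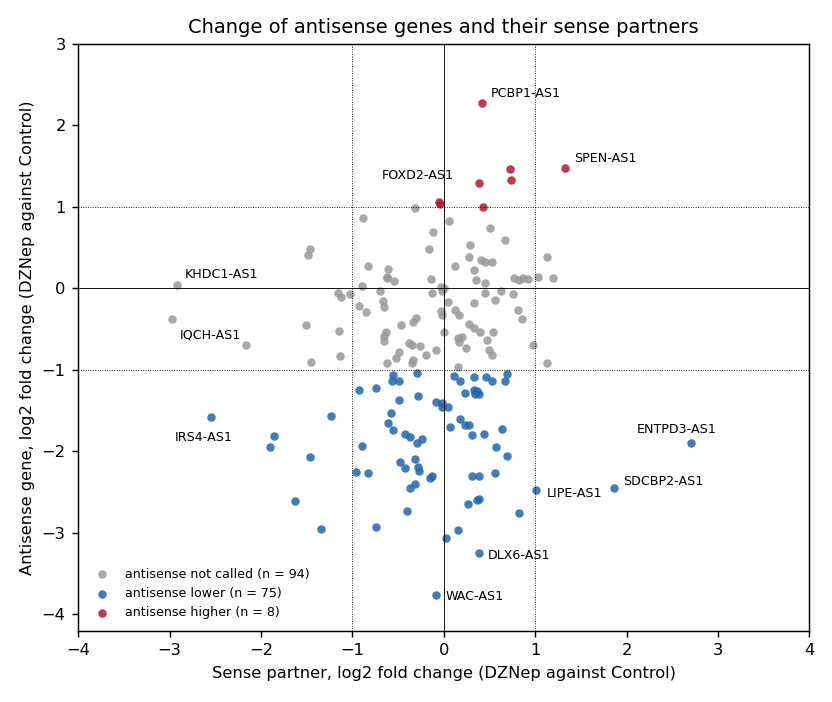
Log2 fold change of each antisense gene (vertical axis) against that of its sense partner (horizontal axis), DZNep against Control, for the 177 pairs tested, with dotted lines at a log2 fold change of 1 in size. Of the 75 antisense genes called lower, 65 have a partner that was not called, and the pairs of ENTPD3, SDCBP2 and LIPE lie at the lower right with a partner called higher.

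The difference within pairs was tested on the log2 ratio of member to partner in each library, with limma and a pseudocount of 1, over all 615 antisense and sense pairs with enough counts. The ratio fell in 68 and rose in 14 of the 177 pairs of members, where 27.8% of all 615 pairs were lower and 10.7% higher. The median ratio change was -0.68 for the members and -0.34 for all pairs. Of the 68 pairs with a lower ratio, 58 had a member called lower, 53 of them with a partner not called, and 5 had a partner called higher. Of the 14 with a higher ratio, 3 had a member called higher, 8 a partner called lower and 3 neither. Per kilobase of exon, the member's Control level was at the median 41.7% of the partner's level, and its DZNep level 27.9%. By the same measure the member was above its partner in 53 pairs in Control and in 43 pairs in DZNep.

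Of the 5 greatest ratio changes, those of WAC-AS1 (given above) and DLX6-AS1 (-3.64, adjusted p = 6.18e-06) came with a partner that was not called, and in those of ENTPD3, SDCBP2 and ELOA the partner passed the test in the other direction. ENTPD3 encodes an ectonucleotidase, and its antisense gene encloses it. ENTPD3-AS1 had 163, 113, 112 and 160 normalized counts in Control and 34.5, 24.2, 40.6 and 50.6 in DZNep (log2 fold change -1.90, SE 0.28, adjusted p = 0.000454). ENTPD3 had 6.17, 6.25, 4.48 and 2.15 in Control and 39.9, 30.6, 38.0 and 19.1 in DZNep, a rise of 2.71 on the log2 scale (SE 0.41, adjusted p = 0.000614) from a level of a few counts. In both genes the groups did not overlap, and the ratio fell by 4.38 (SE 0.45, adjusted p = 3.44e-05). SDCBP2-AS1, which starts 3739 bases from the gene of syntenin-2, had 128, 98.2, 103 and 97.8 in Control and 19.1, 20.9, 25.1 and 13.5 in DZNep. SDCBP2 had 35.5, 17.0, 25.1 and 21.5 in Control and 108, 70.9, 82.1 and 101 in DZNep, a log2 fold change of 1.86 (SE 0.29, adjusted p = 0.000651). The order of the pair was thus reversed, from more SDCBP2-AS1 counts than SDCBP2 counts to fewer, and the ratio fell by 4.27 (SE 0.33, adjusted p = 4.77e-06). Per kilobase, SDCBP2-AS1 went from 20.1 to 3.69 and SDCBP2 from 9.69 to 35.5 normalized counts.

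LIPE, the gene of hormone-sensitive lipase, had 224, 160, 135 and 229 normalized counts in Control and 396, 381, 321 and 430 in DZNep, with no overlap (log2 fold change 1.01, SE 0.21, adjusted p = 0.00324). LIPE-AS1, which encloses it, had 244, 123, 195 and 315 in Control and 42.6, 29.0, 30.2 and 60.8 in DZNep (-2.47, adjusted p = 0.000374). The call of LIPE stood close to the size threshold and was lost without Control replicate 2 (0.94), Control replicate 3 (0.88) or DZNep replicate 4 (0.95). ELOA, which encodes the elongation factor Elongin A, had 3663 ± 504 in Control and 6607 ± 800 in DZNep, a log2 fold change of 0.82 (adjusted p = 0.00207) that passed the test but not the size, and ELOA-AS1 had 184, 79.5, 130 and 105 in Control and 20.9, 12.9, 13.8 and 28.1 in DZNep. The ratio of ELOA-AS1 to ELOA fell by 3.52 (SE 0.42, adjusted p = 9.27e-05).

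In 7 pairs both genes were lower: those of IRS4, DCST1, LIPT2, CCDC18, NNT, TMEM44 and GOLGA4. Other than NNT, CCDC18 and TMEM44, these and the pairs of IQCH, KHDC1 and ECI1 were named after their values were seen. NNT encodes the mitochondrial transhydrogenase that makes NADPH, and NNT-AS1 starts 538 bases from it. NNT-AS1 had 1310, 879, 1096 and 1266 normalized counts in Control and 278, 253, 336 and 234 in DZNep (log2 fold change -2.07, SE 0.19, adjusted p = 3.36e-05), and NNT went from 3428 ± 1271 to 1256 ± 243 (-1.47, SE 0.27, adjusted p = 0.0017), with no overlap in either. Their ratio changed by -0.65 (SE 0.35, adjusted p = 0.169), which did not pass. LIPT2, the gene of the octanoyltransferase of lipoic acid synthesis, and LIPT2-AS1 kept a like ratio, with log2 fold changes of -1.86 and -1.81 and a ratio change of 0.09 (SE 0.28). DCST1 and DCST1-AS1 had -1.90 and -1.95, and a ratio change of -0.08 (SE 0.27). IRS4, an insulin receptor substrate that this line is known to make in quantity, had 3977, 22089, 13825 and 2335 in Control and 1635, 2675, 2160 and 881 in DZNep. The groups of IRS4 overlapped, although the test called it (-2.55, SE 0.65, adjusted p = 0.0104), and those of IRS4-AS1, at 509 ± 163 and 173 ± 27.7 (-1.58, adjusted p = 0.000828), did not. CCDC18 had 2425, 801, 1036 and 3221 in Control and 552, 536, 482 and 898 in DZNep (-1.63, adjusted p = 0.0109), with the highest DZNep library above the lowest Control library. With replicates 2 and 3 alone, the change of CCDC18 was -0.89 and was not called.

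In other pairs the partner changed by more than the member. LOXL1, which encodes a lysyl oxidase of elastic fibres, had 487, 274, 330 and 537 normalized counts in Control and 101, 53.2, 86.4 and 128 in DZNep (log2 fold change -2.17, SE 0.31, adjusted p = 0.000394). LOXL1-AS1 had 279, 334, 378 and 186 in Control and 197, 197, 213 and 135 in DZNep, overlapping groups with a log2 fold change of -0.69 (adjusted p = 0.043), and the ratio rose by 1.51 (SE 0.46, adjusted p = 0.0206). IQCH went from 206 ± 47.5 to 26.3 ± 13.3 (-2.97, adjusted p = 0.00026) beside IQCH-AS1 at 141 ± 18.0 and 111 ± 19.0 (-0.37, adjusted p = 0.168). KHDC1 went from 65.0 ± 23.6 to 8.79 ± 4.07 (-2.92, adjusted p = 0.000442), and KHDC1-AS1, which lies inside it, stood at 173 ± 26.0 and 181 ± 3.55 (0.04, adjusted p = 0.862). These falls were of the same size as those of the antisense genes above, with the sense gene as the one that fell. ECI1, an enzyme of mitochondrial fatty acid oxidation, went from 8404 ± 3531 to 3062 ± 1087 (-1.49, adjusted p = 0.00667) and ECI1-AS1 stood at 192 ± 103 and 261 ± 45.4 (0.41, adjusted p = 0.371). PRKCQ, the gene of protein kinase C theta, went from 361 ± 84.7 to 622 ± 46.4 (0.76, adjusted p = 0.00926, under the size for a call), with PRKCQ-AS1 at 417 ± 134 and 404 ± 49.6 (-0.07, adjusted p = 0.827).

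Among 12 members that have been studied often, OIP5-AS1, SBF2-AS1, TMPO-AS1, GABPB1-AS1, NNT-AS1, LOXL1-AS1, MCM3AP-AS1, ASB16-AS1, FOXP4-AS1, PRKCQ-AS1, FGD5-AS1 and TTN-AS1, the calls fell on SBF2-AS1, TMPO-AS1, GABPB1-AS1 and NNT-AS1, all lower. GABPB1-AS1, beside the gene of a subunit of the ETS factor GABP, had 1548, 497, 658 and 1658 normalized counts in Control and 211, 229, 204 and 334 in DZNep, with no overlap (log2 fold change -2.19, SE 0.39, adjusted p = 0.00141). GABPB1 had 1369 ± 125 and 1148 ± 66.0 (-0.28, adjusted p = 0.107). OIP5-AS1, known as cyrano and for binding a microRNA, was the most abundant member in counts, with 5433, 5542, 5636 and 5934 in Control and 4046, 3946, 4230 and 3639 in DZNep. The groups were apart and the test passed, but the change of -0.53 (SE 0.13, adjusted p = 0.00693) was under the size for a call. OIP5, a centromere protein gene, stood at 672 ± 79.1 and 686 ± 57.4 (0.00, SE 0.14). FGD5-AS1, the third most abundant member, had 2175, 2793, 2756 and 2186 in Control and 2539, 2987, 2616 and 2151 in DZNep, a log2 fold change of 0.03 (SE 0.16, adjusted p = 0.905). FGD5, the gene of a Cdc42 exchange factor of endothelium, had 70.4 ± 20.8 and 38.5 ± 9.91 (-0.89, adjusted p = 0.0412), which became a call without Control replicate 4 (-1.09) or DZNep replicate 3 (-1.05). Thus 2 of the 3 most abundant members did not change beyond 2-fold. MCM3AP-AS1 had 319 ± 39.3 and 238 ± 36.5 (-0.45, adjusted p = 0.0648), ASB16-AS1 292 ± 28.2 and 247 ± 27.9 (-0.27, adjusted p = 0.2), FOXP4-AS1 110 ± 61.1 and 98.8 ± 11.3 (-0.18, adjusted p = 0.732), and TTN-AS1 219 ± 40.4 and 308 ± 76.8 (0.47, adjusted p = 0.121). None of these was called, and nor were MCM3AP (-0.47), ASB16 (0.81, adjusted p = 0.0321) and FOXP4 (0.33), while TTN, the titin gene of muscle, stayed at 4.21 and 13.5 normalized counts and was not tested.

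The 8 members called higher, all named after their values were seen, are plotted beside their partners. PCBP1-AS1 (chr2:69960104-70103220, minus strand) encloses PCBP1, an intronless gene of a poly(rC)-binding protein. PCBP1-AS1 had 621, 495, 628 and 564 normalized counts in Control and 2987, 2882, 2736 and 2826 in DZNep. The groups were narrow and far apart, at 577 ± 61.9 and 2858 ± 105, a 4.86-fold rise (log2 fold change 2.28, SE 0.14, adjusted p = 5.16e-06). PCBP1 went from 9122 ± 582 to 12451 ± 1731 (0.42, adjusted p = 0.0452), without a call, and the ratio of PCBP1-AS1 to PCBP1 rose by 1.87 (SE 0.18, adjusted p = 2.32e-05). Its exons share 1264 bases with exons of PCBP1, of 33645 exonic bases in all.

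SPEN-AS1 was the only one of the 8 whose partner was called as well. SPEN encodes a large RNA-binding repressor, known for its part in X inactivation. SPEN-AS1 had 390, 452, 288 and 504 normalized counts in Control and 1178, 1284, 1154 and 1034 in DZNep (log2 fold change 1.48, SE 0.19, adjusted p = 0.000203), and SPEN had 5918, 12105, 7659 and 7066 in Control and 18109, 27014, 24463 and 14556 in DZNep (1.33, SE 0.27, adjusted p = 0.00293). Both rose with no overlap, and their ratio changed by 0.16 (SE 0.28). Of the bases of SPEN-AS1, 33.6% lie under exons of the other strand. RAB35-AS1, beside the gene of an endosomal GTPase, went from 174 ± 40.9 to 486 ± 72.4 (1.46, adjusted p = 0.000358), and RAB35 from 2381 ± 610 to 3985 ± 449 (0.72, adjusted p = 0.0144). ZNF674-AS1 went from 206 ± 46.0 to 529 ± 81.1 (1.33, adjusted p = 0.000528), and ZNF674, a zinc finger gene, from 266 ± 51.6 to 452 ± 69.9 (0.74, adjusted p = 0.0103). In these last pairs the partners passed the test in the same direction, without overlap and under the size for a call.

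FOXD2-AS1, which lies 3403 bases from the forkhead gene FOXD2 and has no overlap with it, had 663, 523, 478 and 822 normalized counts in Control and 1780, 1320, 1530 and 1615 in DZNep (log2 fold change 1.30, SE 0.20, adjusted p = 0.000537). FOXD2 had 564, 571, 533 and 552 in Control and 814, 835, 841 and 470 in DZNep, so that 3 DZNep libraries were high and the fourth was under every Control library (0.39, adjusted p = 0.134). PTPRG-AS1, at the far end of the gene of a receptor tyrosine phosphatase, went from 358 ± 37.2 to 763 ± 61.6 (1.06, adjusted p = 0.000296), and its call was lost without Control replicate 2 (0.99). KIF9-AS1, beside a kinesin gene, went from 106 ± 15.8 to 216 ± 35.0 (1.00, adjusted p = 0.0026). Its change was at the size threshold, and the call was lost in the fit with a block for the replicate number (1.00) and without Control replicate 1 (0.93), Control replicate 3 (0.94) or DZNep replicate 3 (0.90). SVIL-AS1, a pseudogene in the annotation, had 361, 675, 472 and 262 in Control and 885, 1353, 931 and 549 in DZNep, overlapping groups that each follow the split of the replicates (1.04, SE 0.32, adjusted p = 0.0255). The call of SVIL-AS1 was lost in 6 of the 8 fits without 1 library, at 0.95, 1.07 and 0.85 without Control replicates 1, 3 and 4 and at 1.08, 0.81 and 1.05 without DZNep replicates 1, 2 and 3. SVIL, the gene of the actin-binding protein supervillin, stood at 1096 ± 430 and 1084 ± 316 (-0.04, SE 0.31).

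**Figure D4:**
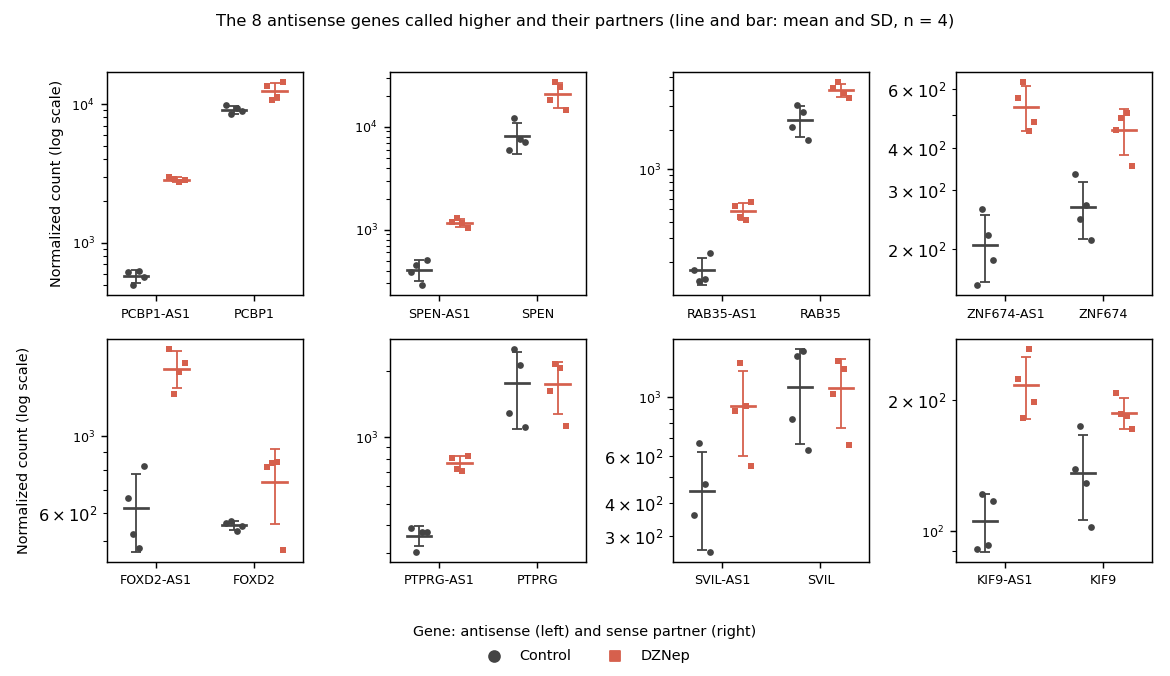
Normalized counts per library (vertical axes, log scale, with a range of its own in each panel) of the 8 antisense genes called higher and of their sense partners, with circles for Control and squares for DZNep and a line and bar for the mean and SD of 4 libraries. The groups are apart in 7 of the antisense genes and overlap in SVIL-AS1, and PCBP1-AS1 has the narrowest groups.

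The pairs were also sorted by their arrangement in the GENCODE annotation. Starts overlapped head-to-head in 86 pairs, of which 40 members were lower (46.5%, median log2 fold change -0.83), and starts lay back to back without overlap in 13 divergent pairs, of which 5 were lower (38.5%, median -0.65). The ends overlapped tail-to-tail in 36 pairs, with 13 lower (36.1%, median -0.41). Members that enclose the partner were lower in 13 of 22 (59.1%, median -1.51), and members inside the partner in 7 of 23 (30.4%, median -0.61). SVIL-AS1 and SVIL converge without overlap. The median of the partners ran from -0.49 where the member lay inside them to 0.40 where it enclosed them. Members were thus lower at the median in each of the 5 arrangements with more than 1 pair, and the differences among arrangements were not tested.

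**Figure D5:**
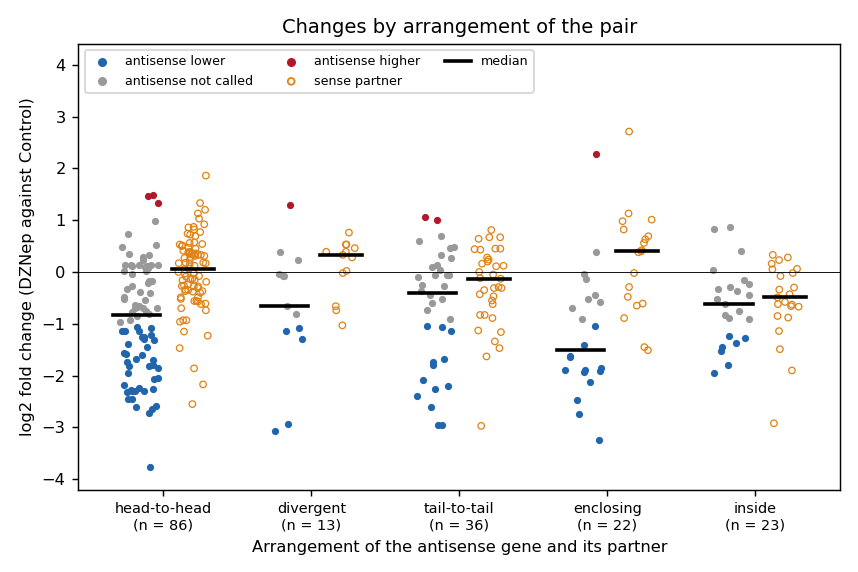
Log2 fold change, DZNep against Control (vertical axis), of the antisense genes (filled points, coloured by call) and of the tested sense partners (open points) in the 5 arrangements of the pair, with bars at the medians; the 1 convergent pair and the 2 genes without a partner are not drawn, and n counts the antisense genes. The median of the antisense genes is below 0 in all 5, from -1.51 (enclosing) to -0.41 (tail-to-tail), while that of the partners lies between -0.49 and 0.40.

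Members whose start lay within 1000 bases of the partner's start were lower in 31 of 61 (50.8%, median -1.06), and those farther away in 47 of 120 (39.2%, median -0.69). Members with 1 exon block were lower in 4 of 23 (17.4%), and those with 2 or more in 74 of 160 (46.2%). GABPB1-AS1, with 1 block of 17259 bases, is among the former. Members with exons that overlap the partner's were lower in 67 of 144 and those without in 11 of 37, while 38 of 99 members with under 10% of their bases covered on the other strand were lower, against 40 of 84 with more. The share covered counts exonic bases only, and the part of reads from the other strand in the falls was not tested. For the wholly covered genes, GJD3-AS1 had 384 ± 31.7 and 209 ± 20.3 and PRR11-AS1 245 ± 98.7 and 446 ± 53.6, and neither was called. With GENCODE's exons, counting without strand would leave such genes few counts. The annotation used for counting is not given, so covered shares, exon blocks and levels per kilobase may not match the exons counted.

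Genes that turn over or end such transcripts were listed from general knowledge. Of 21 genes of the nuclear exosome and its adaptors, 0 were lower and 1 was higher by the call, and DESeq2 called 0 lower and 1 higher. On the adjusted p alone 3 were lower and 1 higher, where 4171 and 3656 of all 19171 genes tested were. At an unadjusted p under 0.05, 5 were lower and 1 higher. The median log2 fold change was -0.28 (from -0.78 to 1.09) beside -0.03 over all genes tested. The higher one was RBM7, which brings the exosome to promoter-derived RNA, at 821 ± 267 and 1788 ± 341 normalized counts (1.09, SE 0.24, adjusted p = 0.00482). The 3 lower on the adjusted p alone were ZCCHC8 (-0.78, adjusted p = 0.00906), EXOSC8 (-0.55, adjusted p = 0.0265) and EXOSC10 (-0.37, adjusted p = 0.0458). Of 22 tested genes of the Integrator and restrictor complexes, which end transcription early, 1 was lower and 1 higher (13.5% and 10.6% of all genes tested were), and 3 were lower and 4 higher on the adjusted p alone, with a median of -0.09. INTS8 went from 2308 ± 269 to 1094 ± 99.7 (-1.10, adjusted p = 0.000213) and INTS15 from 780 ± 151 to 2500 ± 201 (1.65, adjusted p = 6.14e-05). The members' median was -0.76.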

How the data were processed

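RNAseq was analysed for 4 Control and 4 DZNep libraries of HEK293T cells, grouped by the labelled treatment. Per the labels and the study's methods, reads were trimmed with Trimmomatic 0.36, mapped to GRCh38 with STAR 2.5.2b and assigned to exons with featureCounts from Subread 1.5.2; the annotation release and the strand setting are not given in the sources used here. The authors deposited raw counts for 57500 genes and a normalized signal for 19118 genes, those with more than 80 counts in all, which was checked to be the count over a factor for each library (greatest relative deviation 5.1e-15). Symbols were found for 56410 identifiers, and coordinates and exon lengths are from GENCODE's release 44 for GRCh38. Sequences and start windows are RefSeq's.

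The 19171 genes that passed filterByExpr were tested on raw counts with edgeR 4.0.16 (R 4.3.3), with TMM normalization, quasi-likelihood fits and Benjamini-Hochberg adjustment, and called at an adjusted p under 0.05 and a log2 fold change over 1 in size. Levels are normalized counts as mean ± SD. Ratios used limma 3.58.1 on log2((antisense raw count + 1)/(sense raw count + 1)) in each library, so that no size factor enters. DESeq2 1.42.0, other scalings, filters, memberships and subsets of libraries were alternatives. Named were the 20 greatest called changes, the 3 highest Control means, the 5 greatest called ratio changes, the genes at the boundary, 12 well-studied members and all their partners; others were named after their values were seen. The members and lists were chosen with earlier results of these data known. The fits were tested on simulated data.

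Same-numbered libraries correlated at r = 0.14, 0.49, 0.43 and 0.67, and the numbers were taken as pairs in alternative fits. Control replicate 1 correlated more with DZNep replicate 4 (0.53) than with DZNep replicate 1, so these values do not establish pairing by number. The study's test had no term for the replicate number, nor has the main one here. Libraries of a group differed beyond counting noise (chi-square of at least 23.9 per degree of freedom). Totals of 25043058 to 44902779 counts set the precision of each value. The study calls the replicates biological, but their cultures are not described. The proteomics data were not analysed here, and 1 listed marker gene is not reported here.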

Additional observations from a re-analysis of the deposited data

Results flagged for a closer look

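Among 160 groups of 4 libraries (80 named genes, Control and DZNep), 3 held a library far from the other 3 by Dixon's criterion, and chance flags about 1 in 20 such groups. CCDC18 had 898 normalized counts in DZNep replicate 4, while the other 3 DZNep libraries had 482 to 552. DSP-AS1, at the edge of the level that chose the members, had 69.0 in Control replicate 3, while the other 3 Control libraries had 106 to 114. FOXD2 had 470 in DZNep replicate 4, while the other 3 DZNep libraries had 814 to 841.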

How the results depend on the processing

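With the replicate number as a block (replicate block, a paired fit), 76 members were lower and 7 higher, 19 partners were lower and 8 higher, and 87 ratios shifted (72 lower, 15 higher); KIF9-AS1 was the 1 named gene whose call changed. Leaving out 1 library at a time gave 71 to 81 members lower and 6 to 9 higher, 17 to 22 partners lower and 5 to 9 higher, and 71 to 84 shifted ratios. DESeq2 gave 78 lower and 9 higher members. Tested against a 2-fold change (glmTreat), 44 members were lower and 2 higher, and 6 partners were lower and 2 higher. In the block fit, 1728 of the 12969 genes with a Control mean of at least 100 were lower and 620 higher. No share over all genes is given for glmTreat, DESeq2, the left-out libraries or the Control levels of 50 and 200. Those counts show only how the calls moved with the setting. On the adjusted p alone, 103 and 14 members, 36 and 28 partners and 102 ratios passed. By that measure 3235 were lower and 2061 higher of the 12969 genes with a Control mean of at least 100. Of all 19171 genes tested, 4171 were lower and 3656 higher. A Control mean of at least 50 gave 128 lower and 12 higher of 303 members, 32 and 13 partners and 135 ratios, and one of at least 200 gave 44 and 6 of 105, 11 and 5 partners and 52 ratios. A mean of at least 100 over all 8 libraries gave 13 higher members, and over the DZNep libraries, an alternative chosen after seeing the data, 18 lower and 15 higher members and 42 ratios. Without an exon overlap with a partner, 11 of 39 members (2 of them without a partner) were lower and 2 higher, 3 partners were lower and 0 higher, and 16 ratios shifted; under 10% coverage on the other strand (chosen after seeing the data) left 38 and 4 members, 2 higher partners and 44 ratios. These subsets hold fewer or more genes by construction. Replicates 1 and 4 alone gave a member median of -0.86 and replicates 2 and 3 alone -0.67 (both chosen after seeing the data). Median-ratio size factors moved the median of the members to -0.73 and library sizes alone to -0.66. Of 1421 values of 79 named genes, 1389 kept their call, 29 lost it, 3 gained one and 0 reversed; all 360 values of the 20 greatest changes kept it.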
